A study of Mus musculus with 24 samples.

Results

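Laminins are matrix proteins of the basement membrane that wraps each adipocyte, and the cell holds on to them through receptors in its plasma membrane. Described here are 7 genes of such receptors in mouse epididymal fat: the integrin chains *Itgb1*, *Itga1*, *Itga3*, *Itga6* and *Itga7*, dystroglycan (*Dag1*) and the basal cell adhesion molecule *Bcam*. They were chosen by symbol as known laminin receptors, and they are 7 of the 16730 genes in the count table. All 7 were among the 15020 genes tested, which reached 1 CPM (a gene's count scaled to the size of its library) in 3 or more mice. Each was set against *Lama4*, the gene deleted from adipocytes in the study, in every library.

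An integrin is a pair of 1 alpha and 1 beta chain. The beta chain encoded by *Itgb1* pairs with each of the alpha chains listed here, and the alpha chain sets which matrix protein is bound. Integrins with the chains of *Itga3*, *Itga6* and *Itga7* bind laminins above all, and the integrin with the chain of *Itga1* binds collagens as well as laminin. Dystroglycan is no integrin. It is cut into an outer part, whose sugar chains bind laminin, and a part that spans the membrane and ties to dystrophin or utrophin inside the cell. The *Bcam* protein belongs to the immunoglobulin superfamily and binds the laminin alpha chain made by *Lama5*.

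RNA came from the epididymal white adipose tissue (eWAT) of 24 male mice, 6 in each of 4 groups, after 20 weeks on chow or on a high-fat diet (HFD) with 45% fat. All 4 groups carried *Lama4* alleles with loxP sites around exon 3. The *Lama4* fl/fl mice, labelled wild type, had these alleles only, and the *Lama4* AKO mice also carried Cre under the adiponectin promoter, which is active in adipocytes and leaves *Lama4* of other cells in the tissue intact. QuantSeq reads start near the 3′ ends of messages, so a count does not grow with transcript length. The alleles of the other cells, and the pieces of tissue taken with the fat pad, limit what a whole-tissue library can show of adipocytes.

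Libraries held 5579590 to 18764516 counts, and the receptors lay between 15 counts (*Itga3*) and 8615 counts (*Itgb1*) in a library. All 7 adipocyte markers listed were detected, and no epididymis marker of 5 listed passed the filter on low values. The first principal component of log2 CPM held 45.8% of the variance and spread libraries within the groups and between them: positions ran from -91.8 to 46.8 in chow *Lama4* fl/fl, from -74.8 to 22.1 in chow *Lama4* AKO and from -76.1 to 73.5 in HFD *Lama4* fl/fl libraries, and from 0.850 (replicate 6) to 61.5 in HFD *Lama4* AKO libraries. Of the HFD *Lama4* AKO libraries, 5 lay above every chow *Lama4* AKO library, so this component also separated the groups of the main comparison. Its r with the receptors within groups ran from -0.936 (*Itga6*) to -0.223 (*Itga3*), and its part in the results was not tested between groups. The study set outlying mice aside by a principal component plot that was not analysed here. A set of 19 mice, inferred from the study's own plots in an earlier analysis of these data, leaves out HFD *Lama4* fl/fl replicates 3, 4 and 6, chow *Lama4* fl/fl replicate 3 and chow *Lama4* AKO replicate 5. These mice were picked with their expression known, and results are given with and without them where the count of calls changed.

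The deleted gene came first. *Lama4* (ENSMUSG00000019846, chromosome 10, 38965515 to 39110188, forward strand, GRCm38) was measured at 41.2, 91.7 and 196 CPM (lowest, median, highest) in chow *Lama4* fl/fl libraries and at 64.2, 113 and 133 CPM in chow *Lama4* AKO libraries. On HFD it was at 32.4, 78.7 and 135 CPM in *Lama4* fl/fl and at 36.4, 44.3 and 92.5 CPM in *Lama4* AKO libraries. The ranges of all 4 groups overlapped, and the libraries labelled *Lama4* AKO were not lower on chow. Mean log2 CPM was 6.69 ± 0.40 (SD, n = 6) in chow *Lama4* AKO against 6.46 ± 0.76 (SD, n = 6) in chow *Lama4* fl/fl libraries (two-sided exact permutation test, p = 0.524, adjusted over 4 comparisons p = 0.558). Within *Lama4* AKO mice, HFD was lower than chow by 1.08 on the log2 scale (exact permutation p = 0.00649, adjusted p = 0.026). Reads at the 3′ end lie far from exon 3 and do not test its deletion. *Gm28586*, a predicted gene taken up because it was known from these libraries to go with the genotype labels, is no independent check of them. It had 6 to 50 counts in each of the 12 *Lama4* AKO libraries and 0 in 11 of the 12 *Lama4* fl/fl libraries. The exception, HFD *Lama4* fl/fl replicate 2, had 33 counts. Without that library no receptor was called in the 2 comparisons between groups that it enters, and the log2 fold changes of the receptors lay between -1.16 and 0.08 for genotype on HFD and between -0.28 and 0.59 for diet in *Lama4* fl/fl. The library also enters the interaction of diet and genotype described further on, whose values without it are not listed here.

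The receptors differed widely in level. *Itgb1*, the beta chain that pairs with each alpha chain listed, was the most abundant, with a median over the 24 libraries of 426 CPM. *Dag1* followed at 183 CPM, *Itga6* at 156 CPM and *Itga7* at 87.0 CPM. *Bcam* had a median of 11.6 CPM, *Itga1* of 9.94 CPM and *Itga3* of 2.90 CPM. Among the 15020 genes tested, *Itgb1* stood above 97.8% and *Itga3* above 23.2%. The neighbours *Dag1* and *Itga6*, and likewise *Bcam* and *Itga1*, overlapped in range. By mean log2 CPM, *Itgb1*, *Itga1*, *Itga6* and *Itga7* had one order of groups, with chow *Lama4* AKO highest, then chow *Lama4* fl/fl, HFD *Lama4* fl/fl and HFD *Lama4* AKO. *Dag1* was lowest in HFD *Lama4* fl/fl libraries. *Bcam* was about level in HFD *Lama4* fl/fl (3.871 ± 0.51, SD, n = 6) and chow *Lama4* AKO libraries (3.865 ± 0.45, SD, n = 6), and lower in chow *Lama4* fl/fl and HFD *Lama4* AKO libraries. In all 24 libraries the ranges of neighbouring groups overlapped for each of the 7 genes.

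**Figure D1:**
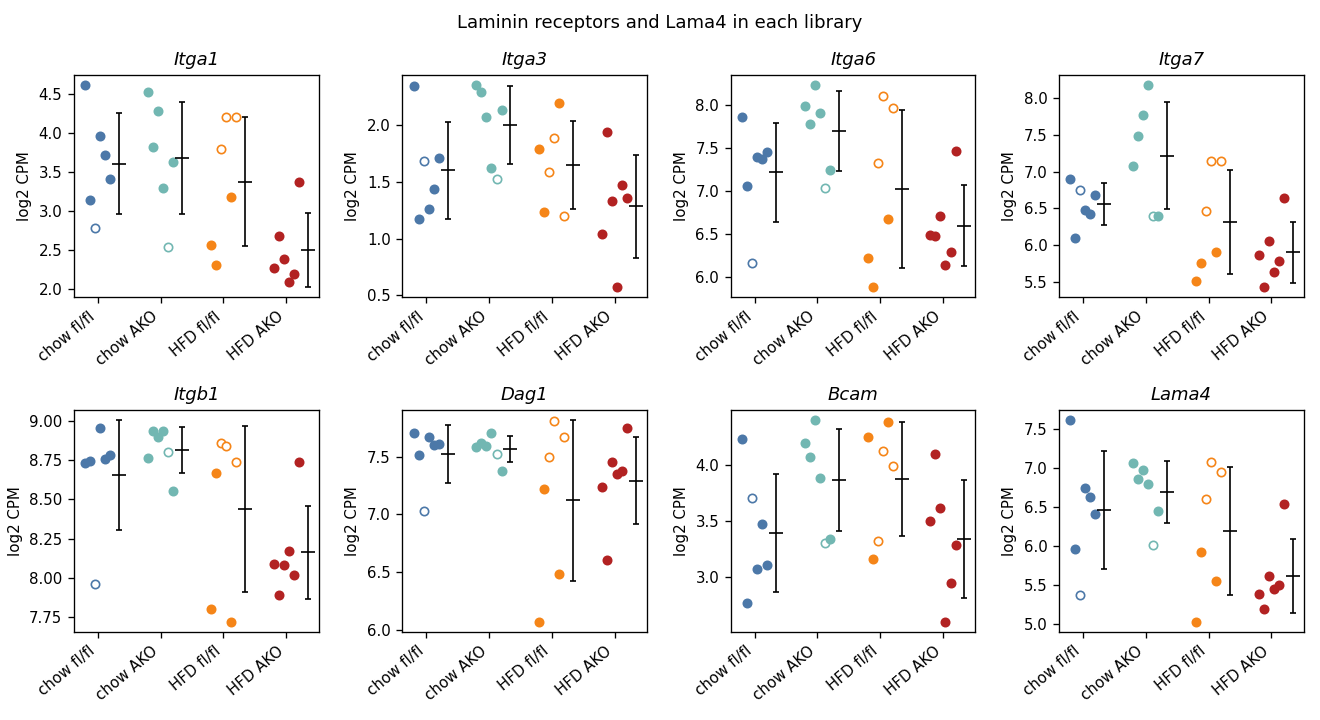
Level of each receptor and of Lama4 in log2 CPM (vertical axis) in the 24 libraries by group (horizontal axis). Points are libraries, open points are those outside the set of 19 mice, and bars give the mean ± SD of 6 libraries. HFD AKO points lie low for Itga7, Itga6, Itga1 and Itgb1 but overlap the other groups, and HFD fl/fl points of Itga6 run from 59.0 to 274 CPM.

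Promoters are shown for 2 pairs of receptors whose levels went up and down together within groups, as described further on: *Itgb1* with *Dag1*, and *Itga3* with *Bcam*. Each sequence holds the 250 bases before the transcription start in RefSeq on GRCm38.p6, on the strand of the gene, and capitals mark the GC box GGGCGG on either strand. Entries matched 5 of the 7 receptors. *Itga6* and *Itga7* had no entry. For *Itga3* and *Bcam* the RefSeq start lies inside the annotated gene, so the window overlaps it.
Itgb1 promoter, chr8:128685404-128685653, forward strand: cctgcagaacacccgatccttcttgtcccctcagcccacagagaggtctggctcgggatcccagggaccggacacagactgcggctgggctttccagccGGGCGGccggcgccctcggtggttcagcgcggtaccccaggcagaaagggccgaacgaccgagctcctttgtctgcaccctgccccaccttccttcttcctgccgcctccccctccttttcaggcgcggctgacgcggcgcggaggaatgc
Dag1 promoter, chr9:108263959-108264208, reverse strand: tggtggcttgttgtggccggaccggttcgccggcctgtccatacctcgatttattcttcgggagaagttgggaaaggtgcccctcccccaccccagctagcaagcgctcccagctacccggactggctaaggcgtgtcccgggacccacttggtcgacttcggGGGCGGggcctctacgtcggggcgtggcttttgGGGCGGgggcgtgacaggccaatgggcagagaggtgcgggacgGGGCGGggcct
Itga3 promoter, chr11:95076715-95076964, reverse strand: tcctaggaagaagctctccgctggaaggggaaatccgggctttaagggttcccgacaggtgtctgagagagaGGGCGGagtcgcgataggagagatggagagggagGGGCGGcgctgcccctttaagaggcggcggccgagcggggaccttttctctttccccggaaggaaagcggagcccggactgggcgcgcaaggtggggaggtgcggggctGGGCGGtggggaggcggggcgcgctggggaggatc
Bcam promoter, chr7:19770533-19770782, reverse strand: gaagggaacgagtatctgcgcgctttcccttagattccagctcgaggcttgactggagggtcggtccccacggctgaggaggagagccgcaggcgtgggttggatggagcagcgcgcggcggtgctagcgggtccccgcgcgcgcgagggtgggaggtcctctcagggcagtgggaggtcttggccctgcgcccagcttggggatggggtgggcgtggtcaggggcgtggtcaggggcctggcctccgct
The GC box, a site that Sp1 and related factors can bind, occurred 1 time before *Itgb1*, 3 times before *Dag1*, 3 times before *Itga3* and 0 times before *Bcam*, against 32.7% of 32851 mouse promoter windows of this length with at least 1. The CCAAT box was searched on both strands as CCAAT and occurred 1 time before *Dag1* and in none of the other 3, against 33.8% of all windows. GC content was 68.0% for *Itgb1*, 67.6% for *Dag1*, 67.6% for *Itga3* and 70.0% for *Bcam*, with a median over all windows of 52.4%. The partners of the first pair both had a GC box, and the partners of the second did not share one.

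The main comparison was HFD against chow within *Lama4* AKO mice, where all 7 receptors had a negative log2 fold change. The call rule was that of the study, 1.5-fold or more with an unadjusted p no higher than 0.001, and 2 CPM or more on average in whichever group was higher. *Itga7* was the 1 receptor called (lower on HFD), while 4.12% of all genes tested were called and 2.83% were called lower. No receptor had ranges that did not overlap between these groups, beside 6.86% of all genes. At an adjusted p of at most 0.05, 5 receptors were lower (*Itga1*, *Itga3*, *Itga6*, *Itga7* and *Itgb1*) beside 22.1% of all genes in either direction and 12.9% of all genes that were lower. The median log2 fold change was -0.73 for the receptors and -0.0031 for all genes. In bulk tissue, fewer cells of a type and less RNA per cell cannot be told apart. Between these groups the summed adipocyte markers went from 15027 to 37142 CPM on chow to 8824 to 23945 CPM on HFD, and the summed macrophage markers from 718 to 3297 CPM to 2636 to 3884 CPM; their part in the receptor differences was not tested here.

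*Itga7* (ENSMUSG00000025348, chromosome 10, 128933818 to 128958282, forward strand) encodes the alpha chain best known from skeletal and smooth muscle, where it anchors fibres to laminin. In chow *Lama4* AKO libraries, replicates 1 to 6, it was measured at 134, 179, 219, 291, 84.2 and 84.2 CPM. In HFD *Lama4* AKO libraries it was at 58.4, 42.9, 66.3, 49.5, 55.1 and 99.6 CPM. All but replicate 6 of the HFD libraries were below every chow library, so the groups overlapped through 1 HFD library. The log2 fold change was -1.42 (SE 0.32, edgeR adjusted p = 0.0134), and the gene stayed called with the same sign in all 32 alternative fits. Of 5 skeletal muscle markers *Acta1* alone was tested, at 16.2 to 47.2 CPM on chow and 5.82 to 24.1 CPM on HFD in *Lama4* AKO libraries. The 7 markers of smooth muscle and pericytes summed to 265 to 1050 CPM on chow and 209 to 357 CPM on HFD in the same libraries, and the part of either list in the difference was not tested. In *Lama4* fl/fl mice *Itga7* was at 68.0, 95.8 and 119 CPM (lowest, median, highest) on chow and at 45.3, 74.0 and 142 CPM on HFD.

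*Itga6* (ENSMUSG00000027111, chromosome 2, 71745616 to 71858416, forward strand) encodes a chain that pairs with the product of *Itgb1* in many cells and with that of *Itgb4* in hemidesmosomes. Its levels were 131, 230.3 and 301 CPM in chow *Lama4* AKO and 70.6, 89.4 and 177 CPM in HFD *Lama4* AKO libraries. Again HFD replicate 6 was the library that reached into the chow range. The log2 fold change was -1.09 (SE 0.34, edgeR adjusted p = 0.0308). It was called in 3 of 32 alternative fits, in the 19 mice, with only the 2 groups compared, and without HFD *Lama4* AKO replicate 6. In *Lama4* fl/fl mice the values were 71.5, 167 and 231 CPM on chow and 59.0, 131 and 274 CPM on HFD. The HFD *Lama4* fl/fl libraries lay far apart: replicates 3, 4 and 6 were at 161, 274 and 249.8 CPM, and replicates 1, 2 and 5 at 74.2, 59.0 and 102 CPM.

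*Itga1* (ENSMUSG00000042284, chromosome 13, 114953096 to 115101964, reverse strand) was low, with 33 to 368 counts per library. It was measured at 5.63, 13.1 and 22.9 CPM in chow *Lama4* AKO and at 4.11, 4.85 and 10.2 CPM in HFD *Lama4* AKO libraries. HFD replicates 2 and 6, at 6.24 and 10.2 CPM, were above chow replicate 5, the lowest of its group. The log2 fold change was -1.28 (SE 0.38, edgeR adjusted p = 0.0261), and the gene was called in 4 of 32 alternative fits, DESeq2 among them. In *Lama4* fl/fl libraries it was at 6.71, 11.8 and 24.4 CPM on chow and at 4.79, 11.3 and 18.4 CPM on HFD.

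*Itgb1* (ENSMUSG00000025809, chromosome 8, 128685654 to 128733200, forward strand) was measured at 376, 462 and 490.3 CPM in chow *Lama4* AKO and at 237, 271 and 426 CPM in HFD *Lama4* AKO libraries. Here 5 of the 6 HFD libraries were at or below 288 CPM, under every chow library, and replicate 6 was at 426 CPM. The log2 fold change was -0.63 (SE 0.20, edgeR adjusted p = 0.0329), which passes 1.5-fold but not the unadjusted p of the call rule. It was called in 2 of 32 alternative fits. In *Lama4* fl/fl libraries the gene was at 248.8, 432 and 496 CPM on chow and at 211, 416 and 465 CPM on HFD.

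*Itga3* (ENSMUSG00000001507, chromosome 11, 95044474 to 95076801, reverse strand), an alpha chain known from epithelia of kidney, lung and skin, had 15 to 80 counts per library. It was at 2.73, 4.16 and 4.97 CPM in chow *Lama4* AKO and at 1.34, 2.39 and 3.70 CPM in HFD *Lama4* AKO libraries, with 1 HFD library in the chow range. The log2 fold change was -0.73 (SE 0.26, edgeR adjusted p = 0.0449). The chow *Lama4* fl/fl libraries held 2.11 to 4.95 CPM and the HFD *Lama4* fl/fl libraries 2.15 to 4.43 CPM. At so few counts small differences are not detectable.

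The receptors outside the integrin family did not pass in this comparison. *Dag1* (ENSMUSG00000039952, chromosome 9, 108204634 to 108263958, reverse strand) was at 166, 193 and 209 CPM in chow *Lama4* AKO and at 97.1, 164 and 215 CPM in HFD *Lama4* AKO libraries, a log2 fold change of -0.24 (SE 0.22, edgeR adjusted p = 0.432). *Bcam* (ENSMUSG00000002980, chromosome 7, 19756131 to 19771016, reverse strand) was at 9.73, 15.6 and 21.03 CPM in chow *Lama4* AKO and at 5.90, 10.4 and 16.9 CPM in HFD *Lama4* AKO libraries, a log2 fold change of -0.51 (SE 0.28, edgeR adjusted p = 0.168). Both sets of libraries overlapped. For neither gene does the test show that the level stayed the same. In *Lama4* fl/fl mice *Dag1* was at 131 to 209 CPM on chow and 67.0 to 224 CPM on HFD, and *Bcam* at 6.64 to 18.7 CPM on chow and 8.78 to 20.7 CPM on HFD.

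How many receptors were called in this comparison moved with single libraries. Without HFD *Lama4* AKO replicate 6, 4 receptors were called (*Itga1*, *Itga6*, *Itga7* and *Itgb1*), and without chow *Lama4* AKO replicate 5, 2 were called (*Itga1* and *Itga7*). The share of all genes called without these libraries is not given here, so the counts are not read as a trait of the receptors. In the 19 mice *Itga1*, *Itga6* and *Itga7* were called, beside 15.7% of the genes tested there (9.57% called lower).

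HFD against chow within *Lama4* fl/fl mice called no receptor in all 24 libraries. Across all genes the same test called 0.173%, and 0 genes reached an adjusted p of at most 0.05, while 1354 genes (9.01%) had an unadjusted p under 0.05. The log2 fold changes of the receptors ran from -0.29 (*Dag1*) to 0.48 (*Bcam*), with a median of -0.11 beside -0.01 for all genes. In the 19 mice, where 3 HFD libraries were left, 11.8% of genes were called, 6.28% lower, and so were *Itga6* (log2 fold change -1.16, SE 0.29) and *Dag1* (log2 fold change -0.95, SE 0.23). *Itga1*, at -1.15 (SE 0.37), and *Itgb1*, at -0.67 (SE 0.21), passed the adjusted p there but not the call rule, beside 29% of genes with an adjusted p of at most 0.05 and 15.5% that were lower. *Itga6*, *Itga7*, *Itgb1* and *Dag1* had ranges that did not overlap in those mice, as did 29.3% of all genes. *Bcam* was higher on HFD in both sets, by 0.48 (SE 0.28) and 0.61 (SE 0.35) on the log2 scale, without passing either criterion. The 2 diet comparisons in *Lama4* AKO and *Lama4* fl/fl mice share no samples.

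Genotype was compared within each diet, the comparison that asks how the receptors stand when adipocytes lack *Lama4*. On HFD no receptor was called, beside 0.173% of all genes, and no gene reached an adjusted p of at most 0.05, although 2227 genes (14.8%) had an unadjusted p under 0.05. *Itga1* had the most negative log2 fold change, -1.004 (SE 0.37, edgeR adjusted p = 0.293), which was -0.16 (SE 0.35) in the 19 mice. *Itga6* stood at -0.59 (SE 0.34), *Itga7* at -0.51 (SE 0.31) and *Itgb1* at -0.32 (SE 0.20), and in the 19 mice these 3 had the opposite sign, 0.37 (SE 0.27), 0.23 (SE 0.30) and 0.06 (SE 0.20). *Itga3* at -0.37 (SE 0.26) and *Bcam* at -0.53 (SE 0.28) kept their sign in the 19 mice. *Dag1* moved from 0.08 (SE 0.22) in all mice to 0.66 (SE 0.22) in the 19 mice. No receptor was called in either set, and 0.565% of genes were called in the 19 mice.

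On chow no receptor was called between genotypes, beside 0.113% of all genes, and 878 genes (5.85%) had an unadjusted p under 0.05 with 0 at an adjusted p of at most 0.05. All 7 log2 fold changes were positive in all 24 libraries, beside 50.6% of all genes, and *Dag1* became -0.042 in the 19 mice, where no receptor was called beside 0.209% of genes. *Itga7* had the highest value, 0.79 (SE 0.31, edgeR adjusted p = 0.794). Chow *Lama4* AKO replicates 2, 3 and 4 held its top 3 values of the series, and HFD *Lama4* fl/fl replicate 6 followed at 142 CPM. The next values were 0.46 for *Itga6* (SE 0.34), 0.46 for *Bcam* (SE 0.28) and 0.41 for *Itga3* (SE 0.25).

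**Figure D2:**
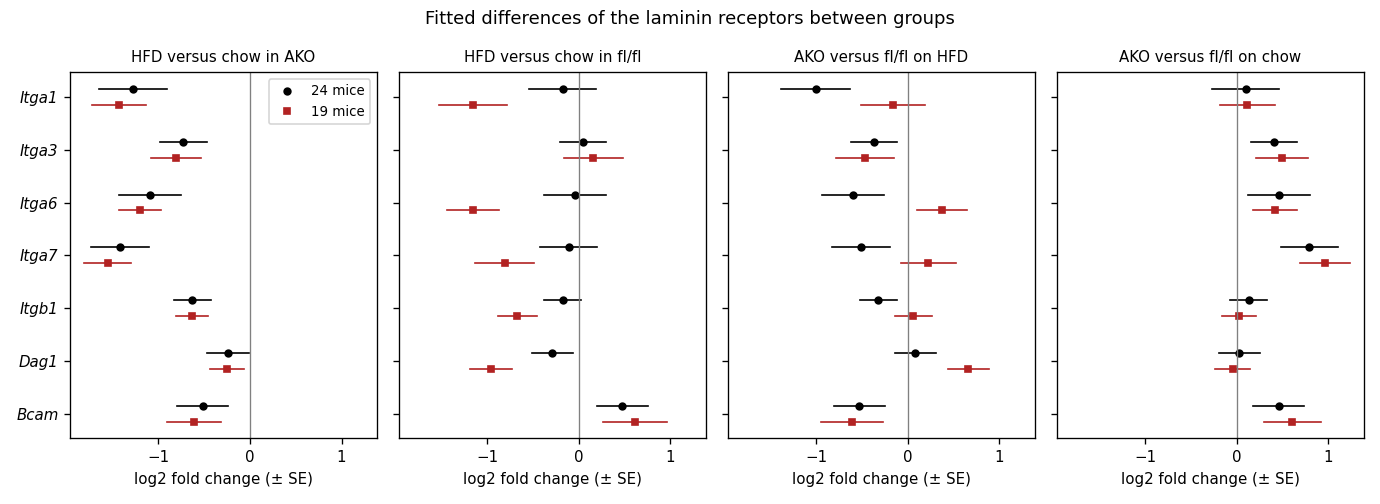
Fitted log2 fold changes of the 7 receptors (horizontal axis, ± SE) in 4 comparisons, with all 24 mice (black circles) and the 19 mice (red squares). In HFD versus chow in AKO every point is below 0 in both sets, and in HFD versus chow in fl/fl the values of Itga6 are -0.04 with 24 mice and -1.16 with 19.

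The plot of fold changes shows where the choice of mice matters. The interaction asks whether the diet difference is unequal between the genotypes. No receptor was called for it, beside 0.386% of all genes (0.00666% at an adjusted p of at most 0.05), nor in the 19 mice, beside 0.68%. *Itga7* had an interaction of -1.30 on the log2 scale (SE 0.44, edgeR adjusted p = 0.246) and *Itga1* of -1.10 (SE 0.52, edgeR adjusted p = 0.314). *Itga6* had one of -1.05 (SE 0.48, edgeR adjusted p = 0.304) and *Bcam* of -0.99 (SE 0.39, edgeR adjusted p = 0.271). The value of *Itga6* was -0.04 in the 19 mice, that of *Itga1* -0.28, that of *Itga7* -0.74 and that of *Bcam* -1.22. A difference between the genotypes in the response of these receptors to diet was therefore not shown.

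Partners of the receptors were counted from 5 lists, and genes named below beyond those called were picked after their values were seen. Of 11 tested genes of the dystrophin complex, which holds dystroglycan, none was called in HFD against chow in *Lama4* AKO mice, and 6 were lower at an adjusted p of at most 0.05, beside 12.9% of all genes. *Dtna* (dystrobrevin) fell by 1.96 (SE 0.57, edgeR adjusted p = 0.0254) and *Sgcd* (a sarcoglycan) fell by 1.57 (SE 0.46, edgeR adjusted p = 0.0263). *Dag1*, which is not counted in this list, had the smaller difference given above. Of 17 enzymes that build the sugar chains of dystroglycan, none was called and none was higher at that threshold. *Dolk*, which makes dolichol phosphate, was lower, with a log2 fold change of -0.996 (SE 0.28, edgeR adjusted p = 0.0228).

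Of 22 genes whose proteins bind integrin tails or gather in focal adhesions, 2 were lower at an adjusted p of at most 0.05, beside the same 12.9% of all genes, and none was called. *Fermt2* (kindlin-2, which binds the tails of beta chains) fell by 1.40 (SE 0.44, edgeR adjusted p = 0.0305), and *Tln2* (talin-2) fell by 1.13 (SE 0.37, edgeR adjusted p = 0.0345). Of 17 other receptors and tetraspanins, *Sdc4* (syndecan-4) was called lower at -0.71 (SE 0.19, edgeR adjusted p = 0.0208), beside 2.83% of all genes called lower. *Itga11* (0.95, SE 0.28, edgeR adjusted p = 0.0273) and *Itga5* (0.77, SE 0.24, edgeR adjusted p = 0.0315) were higher, beside 9.13% of all genes that were higher at an adjusted p of at most 0.05. The chains of *Itga11* and *Itga5* make the receptors of collagen and fibronectin. Among 10 laminin chains, *Lama2* was called higher at 0.80 (SE 0.17, edgeR adjusted p = 0.0124), beside 1.29% of all genes called higher. *Lama5*, *Lama4* and *Lamc3* were lower at an adjusted p of at most 0.05, beside 12.9% of all genes, with *Lama5* at -0.80 (SE 0.24, edgeR adjusted p = 0.0284). In the other comparisons of all 24 libraries no gene of these 5 lists was called, and the lowest p in the dystrophin list was that of *Sntb2* for diet in *Lama4* fl/fl mice, *Dtna* for genotype on HFD and *Dtnb* for genotype on chow. In the 19 mice, 17 genes of the lists were called for diet in *Lama4* AKO and 7 in *Lama4* fl/fl mice, beside 15.7% and 11.8% of all genes.

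Within groups, each receptor was set against *Lama4* in the same library. Log2 CPM was centred on the mean of its group, and an edgeR slope was fitted for every other gene. With a rise of 1 log2 unit of *Lama4*, *Itga1* was higher by 0.91 (SE 0.11), *Itga6* by 0.87 (SE 0.10) and *Itga7* by 0.60 (SE 0.14). *Dag1* was higher by 0.53 (SE 0.09) and *Itgb1* by 0.44 (SE 0.09). These 5 passed an adjusted p of at most 0.05, as did 54.4% of all genes, 26.8% with a positive slope. *Itga3* (0.08, SE 0.15) and *Bcam* (0.09, SE 0.16) did not pass. The same 5 receptors passed in the 19 mice, beside 24.6% of genes.

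Correlations gave the same division, computed over 24 libraries with 100000 two-sided permutations within groups and adjusted over 7 relations. *Itga6* had Pearson r = 0.882 and Spearman rho = 0.913 with *Lama4*, both with the smallest p such permutations can give (permutation p = 1e-05, adjusted p = 2.33e-05), and r = 0.884 without the 2 libraries farthest from the median of *Lama4*. *Itga1* had r = 0.865 and rho = 0.869 (permutation p = 1e-05 for each, adjusted p = 2.33e-05; r = 0.839 without the 2 libraries). *Dag1* had r = 0.822 and rho = 0.820 (permutation p = 1e-05 for each, adjusted p = 2.33e-05; r = 0.829 without them). The relation held with little change when only those 2 libraries were left out. *Itgb1* had r = 0.782 (permutation p = 0.00022, adjusted p = 0.000308) and rho = 0.701 (permutation p = 0.00064, adjusted p = 0.000896), with r = 0.805 without them. *Itga7* had r = 0.699 (permutation p = 0.00016, adjusted p = 0.00028) and rho = 0.709 (permutation p = 0.00047, adjusted p = 0.000822), with r = 0.671 without them. For *Itga3* and *Bcam* the relation did not pass. *Itga3* had r = 0.136 (permutation p = 0.558) and rho = 0.104 (permutation p = 0.65), with r = -0.000321 without the 2 libraries. *Bcam* had r = 0.152 (permutation p = 0.517) and rho = 0.122 (permutation p = 0.6), with r = 0.0917 without them. With the 19 mice alone, r was lower for *Itga6* (0.681), *Itga1* (0.714), *Dag1* (0.666), *Itgb1* (0.592) and *Itga7* (0.630). Each of these still passed there (highest adjusted permutation p = 0.0178). *Itga3* (0.256) and *Bcam* (0.259) had a higher r in the 19 mice and did not pass (adjusted permutation p = 0.369 for each).

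**Figure D3:**
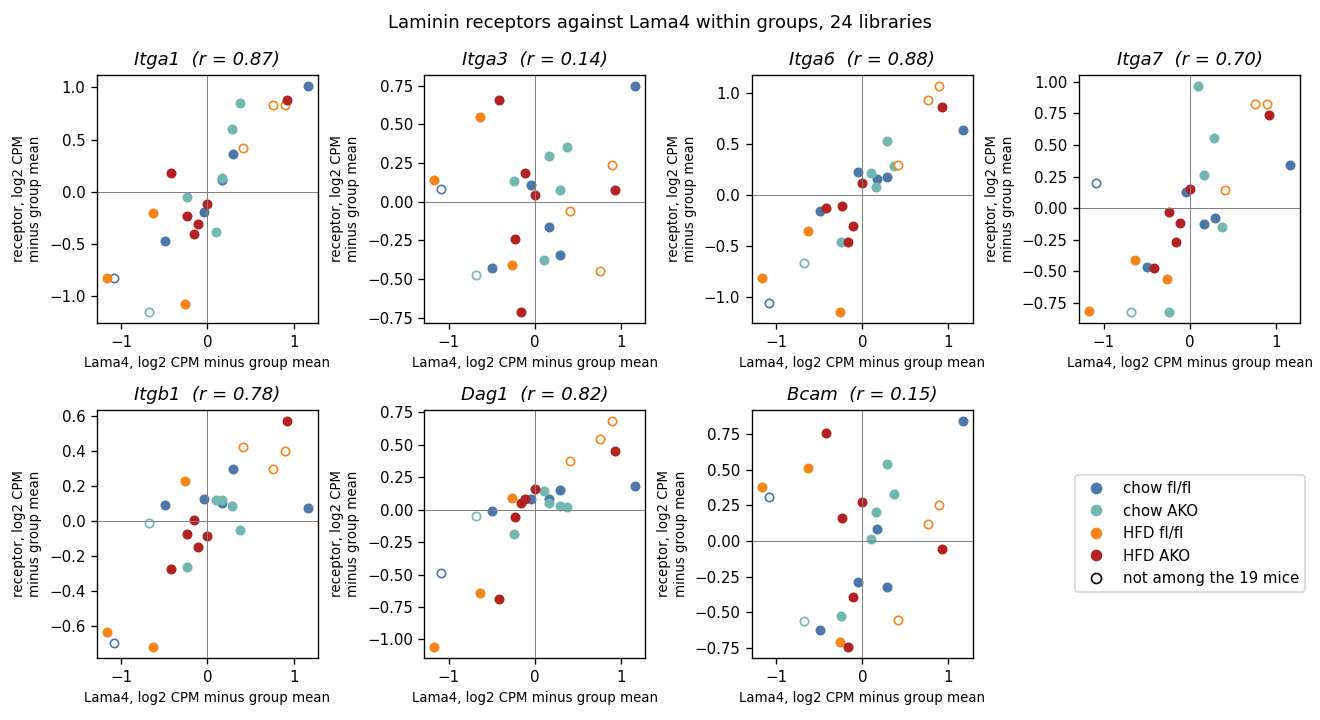
Each receptor (vertical axis) against Lama4 (horizontal axis), both in log2 CPM minus the mean of the group, in 24 libraries coloured by group, with libraries outside the set of 19 mice open. Points of Itga6, Itga1 and Dag1 follow a rising line (r = 0.88, 0.87 and 0.82), and those of Itga3 and Bcam do not (r = 0.14 and 0.15).

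Group by group, 28 relations of 6 libraries each were computed. *Dag1* followed *Lama4* in HFD *Lama4* fl/fl libraries (r = 0.973, rho = 1, exact permutation p = 0.00278 for each, adjusted p = 0.0259; r = 0.932 without the 2 libraries farthest from the median) and in HFD *Lama4* AKO libraries (r = 0.782, rho = 1, with the same exact p; r = 0.971 without 2). *Dag1* also passed by r in chow *Lama4* fl/fl libraries (r = 0.849, rho = 0.943, exact permutation p = 0.00556 and 0.0167, adjusted p = 0.0389 and 0.0778, with r = 0.944 without 2). In chow *Lama4* AKO libraries the r of *Dag1* was 0.527 (rho = 0.371, exact permutation p = 0.350 and 0.497) and turned to -0.841 without 2. *Bcam* passed in chow *Lama4* AKO libraries alone of the 4 groups (r = 0.915, rho = 0.943, exact permutation p = 0.0139 and 0.0167, adjusted p = 0.0486 and 0.0778; r = 0.755 without 2). *Itga1* had its highest r in chow *Lama4* fl/fl libraries (r = 0.988, rho = 1, exact permutation p = 0.00278 for each, adjusted p = 0.0259; r = 0.963 without 2). *Itga6* had r from 0.866 to 0.939 over the 4 groups, with exact permutation p from 0.0139 to 0.144, and r from 0.504 to 0.845 without 2. It passed by r in chow *Lama4* fl/fl libraries alone (exact permutation, adjusted p = 0.0486). *Itga7* passed by r in HFD *Lama4* fl/fl (r = 0.951, rho = 0.886, r = 0.917 without 2) and HFD *Lama4* AKO libraries (r = 0.950, rho = 0.829, r = 0.580 without 2). Its exact permutation adjusted p was 0.0486 for each r, and 0.117 and 0.148 for rho. *Itgb1* reached r = 0.966 in HFD *Lama4* AKO libraries (rho = 0.543, exact permutation p = 0.0417 and 0.297, adjusted p = 0.0972 and 0.520), which became -0.258 without 2, so that value rests on those libraries, replicate 6 among them.

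*Lama4* itself followed the first principal component within groups (r = -0.951, rho = -0.974), the mean of the adipocyte markers (r = 0.900, rho = 0.917) and, downward, the macrophage markers (r = -0.790, rho = -0.762), each with permutation p = 1e-05 and adjusted p = 5e-05 over 25 relations. Without the 2 libraries farthest from the median these r were -0.935, 0.861 and -0.736. With the first principal component as a covariate, 6.65% of all genes had a slope on *Lama4* at an adjusted p of at most 0.05, and so did 1 of the 7 receptors, *Itgb1* with 0.82 (SE 0.25). *Dag1* had a slope of 0.78 (SE 0.27) in that fit and missed the adjusted threshold. The slopes of *Itga1* (0.05, SE 0.32), *Itga6* (-0.03, SE 0.26) and *Itga7* (-0.18, SE 0.43) were then within 1 SE of 0, and *Bcam* was at -1.40 (SE 0.44). Library size had r between -0.180 and 0.221 with the 7 receptors (lowest adjusted permutation p = 0.229).

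Levels of the receptors were also compared with 9 lists of cell markers, each summarised by the mean log2 CPM of its detected genes. Of the 63 pairs, 32 had an adjusted permutation p of at most 0.05 in 24 libraries and 17 in the 19 mice, 16 of them in both. The share that other genes would give is not given here, so this count is not read as a trait of the receptors. *Itga6* (r = 0.874, rho = 0.899), *Itga1* (r = 0.856, rho = 0.811) and *Itga7* (r = 0.835, rho = 0.823) had their closest or second closest relation with the adipocyte markers (adjusted permutation p = 0.000315 or lower for each r). Without the 2 libraries farthest from the median these r were 0.844, 0.821 and 0.832. Their r with the endothelial markers was 0.854, 0.813 and 0.844. *Itga1* also went against the macrophage markers (r = -0.854, rho = -0.815, adjusted permutation p = 0.000157 and 0.00021). Which cells carried a receptor cannot be told from whole tissue.

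*Itga3* and *Bcam*, whose relation to *Lama4* over all groups did not pass, went with the mesothelial markers. *Itga3* had r = 0.760 and rho = 0.770 with that list (adjusted permutation p = 0.00102 and 0.00084), r = 0.683 without the 2 libraries farthest from the median, and r = 0.819 in the 19 mice. *Bcam* had r = 0.671 and rho = 0.713 (adjusted permutation p = 0.00562 and 0.00263), r = 0.559 without those libraries, and r = 0.677 in the 19 mice. The mesothelium is the thin layer that covers the fat pad, and its 6 markers, *Msln* and *Upk3b* among them, summed to 10.99 to 159 CPM over all libraries. For the other 5 receptors the r with this list lay between -0.318 and 0.359, and none passed. *Bcam* also passed with the macrophage list (r = -0.569, rho = -0.481, adjusted permutation p = 0.0195 and 0.0446) and the erythrocyte list (r = 0.535, rho = 0.518, adjusted permutation p = 0.0298 and 0.0436), with r = -0.454 and 0.622 without the 2 libraries.

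**Figure D4:**
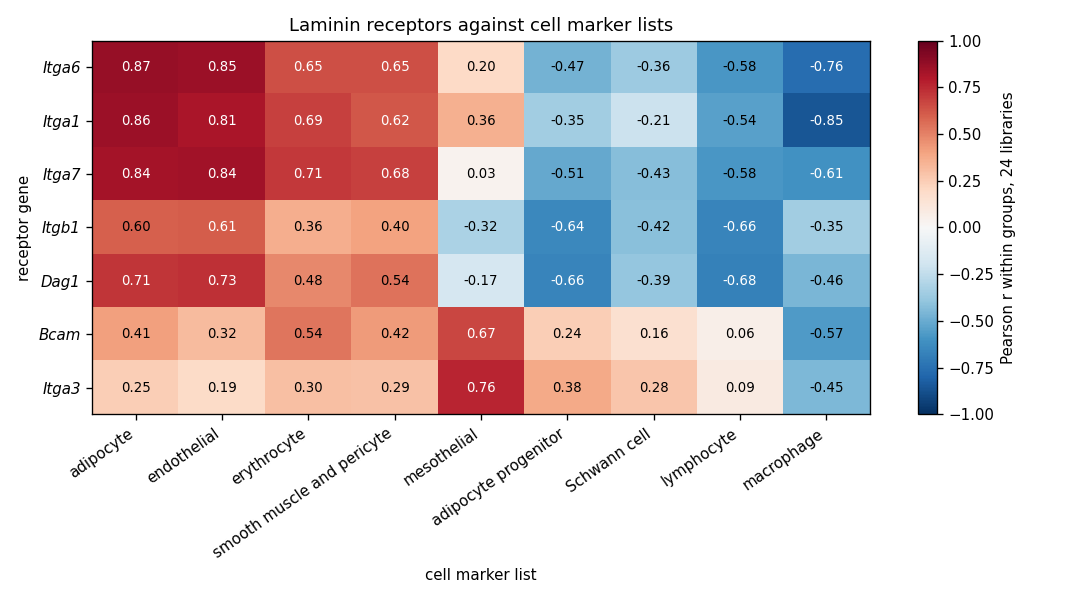
Pearson r within groups over 24 libraries between each receptor (vertical axis) and each cell marker list (horizontal axis), from -1 (blue) to 1 (red). Itga6, Itga1 and Itga7 are red with the adipocyte and endothelial lists (0.81 to 0.87), and Itga3 and Bcam with the mesothelial list (0.76 and 0.67).

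The receptors also went with each other. Of 21 pairs, 10 had an adjusted permutation p of at most 0.05 in 24 libraries and 9 in the 19 mice, with no share for pairs of other genes given here. The pairs that passed were partly different. In the 19 mice r fell from 0.656 to 0.240 for *Itga6* with *Itgb1* and from 0.686 to 0.222 for *Itga6* with *Dag1*. For *Itga1* it fell from 0.524 to 0.0596 with *Dag1* and from 0.604 to 0.305 with *Itga7*. None of these passed there. *Itga1* with *Itga3*, *Itga1* with *Bcam* and *Itga6* with *Bcam* passed in the 19 mice only. *Itga1* and *Itga6* had r = 0.895 (rho = 0.861, adjusted permutation p = 0.000105 and 0.000315), and 0.895 without the 2 libraries farthest from the median. *Itgb1* and *Dag1*, whose promoters are printed above, had r = 0.887 (rho = 0.800, adjusted permutation p = 0.000105 and 0.000315), 0.881 without the 2 libraries farthest from the median and 0.821 in the 19 mice. *Itga3* and *Bcam* had r = 0.729 (rho = 0.717, adjusted permutation p = 0.00152 and 0.00171), 0.62 without those libraries and 0.761 in the 19 mice. *Itgb1* and *Itga3*, the chains of 1 integrin, had r = -0.340 (rho = -0.362, adjusted permutation p = 0.186 and 0.136).

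Because alpha chains share *Itgb1*, each was also given as a percentage of its counts in the same library, which no scaling changes. *Itga6* made 28.7% to 54.4% of *Itgb1* in chow *Lama4* fl/fl, 29.3% to 62.9% in chow *Lama4* AKO, 14.5% to 59.7% in HFD *Lama4* fl/fl and 24.5% to 41.5% in HFD *Lama4* AKO libraries. *Itga7* had medians of 21.5%, 33.7%, 24.4% and 21.4% in the same order of groups. *Itga1* had medians of 2.85%, 3.04%, 3.47% and 1.79%, and *Itga3* of 0.649%, 0.912%, 0.696% and 0.789%. Ranges of the 4 groups overlapped for each chain, and no test was made of these ratios.

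For each receptor the 3 genes with the highest r within groups over the 24 libraries are given as a description. *Itga6* was closest to *Vldlr* (0.978), *Fermt2* (0.977) and *Fzd4* (0.976), and *Itga1* to *Myh10* (0.955), *Palmd* (0.954) and *Itpr1* (0.952). *Itga7* was closest to *Slc25a1* (0.941), *Paqr9* (0.923) and *Pex16* (0.918). *Dag1* had *Prkaca* (0.973), *Bms1* (0.954) and *Esyt1* (0.952), and *Itgb1* had *Bzw2* (0.951), *Cbx3* (0.940) and *Dynlrb1* (0.934). *Itga3* had *Crym* (0.857), *Rhpn2* (0.845) and *Gm37494* (0.828), and *Bcam* had *Sowahc* (0.935), *Fgf1* (0.910) and *Selenow* (0.899). No gene appears under 2 receptors, and the points of each correlation share the libraries and their first principal component.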

How the data were processed

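RNA of epididymal fat from 24 mice was measured with QuantSeq. Per the methods of the study, the authors mapped and counted reads with the Lexogen QuantSeq pipeline and also name Rsubread as a source of raw count matrices. The deposited counts are raw counts per gene. The submitters' processing notes give GRCm38 as the build, and the aligner is not given in the sources used here. A second deposited table holds these counts divided by 1 size factor per library, a signal the authors made with DESeq2 (version 1.30 under R 4.0.3 in the submitters' notes). Its values were used only to check the columns. It also gave the symbols of 14067 genes, and 2616 symbols came from a reference list of gene names. All columns were mapped to samples by name (0 left over). The lowest total of a deposited gene was 72 counts, so genes with fewer were not analysed here.

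Counts were fitted with edgeR 4.0.16 (R 4.3.3; quasi-likelihood test, TMM scaling, 1 coefficient per group, all 24 libraries) for genes that reached 1 CPM in 3 or more mice. P-values were adjusted by Benjamini-Hochberg over all genes tested. Log2 CPM used a prior count of 2. Correlations used values centred on group means, with 100000 two-sided permutations within groups in SciPy 1.17.1 (Python 3.11.15). Adjusted p-values cover each family of relations, and within single groups the permutations were exact. Mice were separate animals. No library pair of a group agreed within sampling noise (60 pairs, lowest chi-square per degree of freedom 5.72). Totals of 5579590 to 18764516 counts set the precision.

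The receptors, markers and lists were chosen with earlier results of these data known. Genes named are the receptors and *Lama4*, the called genes of each list (up to 4 by p, otherwise the lowest p), the 3 nearest genes per receptor, and *Gm28586*. *Sgcd*, *Tln2*, *Itga11*, *Itga5*, *Lama5* and *Lamc3* were named outside this rule, after their values were seen, for an adjusted p of at most 0.05. Alternatives were the 19 mice, leaving out each library, limma-voom (limma 3.58.1), DESeq2 1.42.0, RLE scaling, other filters, only the groups compared, a replicate block and other call rules. The first principal component as a covariate was added after seeing the data, as were the *Lama4* level and the marker relations in the 19 mice. The fits were tested on simulated data. Some results of the pathway lists are not reported here.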

Additional observations from a re-analysis of the deposited data

Results flagged for a closer look

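In 32 sets of 6 libraries (7 receptors and *Lama4* in 4 groups) the gap of the lowest or highest library was set against the range on the log2 CPM scale, by Dixon's 95% criterion, which chance passes in about 1 in 20 groups. Chow *Lama4* fl/fl replicate 3 stood apart as the lowest for *Itgb1* (ratio of gap to range 0.778; 248.8 CPM beside 426 CPM in the nearest library) and for *Dag1* (ratio 0.714; 131 beside 183 CPM). HFD *Lama4* AKO replicate 6 stood apart as the highest for *Itgb1* (ratio 0.667; 426 beside 288 CPM) and for *Lama4* (ratio 0.689; 92.5 beside 48.6 CPM). The first of these libraries is outside the 19 mice and the second is among them.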

How the results depend on the processing

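Of the receptor fold changes refitted under other settings than a left-out library, 261 kept direction and call, 7 were newly called and 5 turned in sign, and *Itga7* stayed called for diet in *Lama4* AKO mice in all 32 alternatives. In that comparison 1 receptor was called, against 3 in the 19 mice, 2 with DESeq2, 3 with only the groups compared, 5 at an adjusted p of at most 0.05, and 1 to 4 without single libraries (4 without HFD *Lama4* AKO replicate 6, 2 without chow *Lama4* AKO replicate 5). The lists of other adhesion genes gave 2 calls there, against 17 in the 19 mice, 1 with limma-voom, 7 with DESeq2, 1 with no filter, 10 with only the groups compared, 18 at an adjusted p of at most 0.05, and 1 to 6 without single libraries; for the interaction they gave 0 to 1 without single libraries. For diet in *Lama4* fl/fl mice the 19 mice gave 2 receptors and 7 other adhesion genes against 0 and 0. In the 19 mice the sign turned for genotype on HFD in *Itga6* (0.37), *Itga7* (0.23) and *Itgb1* (0.060), for genotype on chow in *Dag1* (-0.042), and for the interaction in *Itgb1* (0.034). The *Lama4* difference became -1.17 for diet in *Lama4* fl/fl and 0.11 for genotype on HFD, and 17 marker relations passed against 32. Leaving out single libraries turned the sign of log2 fold changes near 0: for diet in *Lama4* fl/fl *Itga1* (-0.35 to 0.090), *Itga3* (-0.073 to 0.24), *Itga6* (-0.29 to 0.13) and *Itga7* (-0.30 to 0.022), for genotype *Dag1* on HFD (-0.071 to 0.22), *Itga1* (-0.10 to 0.36) and *Dag1* (-0.052 to 0.078) on chow, and for the interaction *Dag1* (-0.10 to 0.19). Slopes on *Lama4* ran from -0.084 to 0.14 for *Itga3* and from -0.078 to 0.18 for *Bcam*, and were -0.083 and -0.013 without the 2 libraries farthest in *Lama4*. With the first principal component as a covariate 1 receptor passed in place of 5, with *Itga3* at -0.54, *Itga6* at -0.028, *Itga7* at -0.18 and *Bcam* at -1.40. The cause of these changes was not tested. Shares of all genes called are given above only for the 24 mice, the 19 mice and the adjusted p, not for the other settings. Same-numbered libraries did not deviate together throughout (10 of 24 pairs over 0.1, from -0.483 to 0.714, and 5 libraries correlated best with their own number). No steady pairing by number was seen, which does not exclude one. The replicate block left 1 receptor called for diet in *Lama4* AKO, 1 other adhesion gene, and 5 receptors with a slope on *Lama4*. With the lowest receptor at 15 to 80 counts per library, depth limits *Itga3* most.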
